A study of Mus musculus with 11 samples.

Results

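The genes described here encode 37 proteins of the lysosome: the acid nuclease Dnase2a, proteases, glycosidases, sulfatases, lipid-degrading enzymes and their cofactors, membrane proteins and 2 regulators. Dnase2a was chosen for its low signal on the high-fat diet in these same arrays, and the other 36 genes were chosen by function, to ask whether they share that pattern. A platform annotation assigned 61 probe sets to 35 of the 37 genes, out of 12393 genes with a probe set of their own. Cd63 and Arsb had none under those symbols and were not analysed here. All 35 passed the filter on dim probe sets, so 35 of 7924 genes tested are members.

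Liver RNA from 11 male mice of a mixed background was hybridised, one array per mouse. Wild-type mice received the control (normal) diet (n = 3) or the high-fat diet (n = 4), and mice with the double transgenic Akt1 genotype (DTG), the only ones labelled with muscle hypertrophy, received the high-fat diet (n = 4). Every group, controls included, was given doxycycline for 3 weeks, and no transgenic mice on the normal diet or without doxycycline are in the series. The promoter that drives the Akt1 transgene and the age of the mice are not given in the sources used here. Nothing in the labels says how mice were housed or which were littermates. The p-values set group differences against the spread between mice within groups. Effects of cage or litter cannot be told apart from those of group.

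Lysosomes are acidic compartments in which hydrolases degrade material brought in by endocytosis and autophagy. Most hydrolases reach them through mannose 6-phosphate receptors, and the transcription factor TFEB can raise many lysosomal genes together by binding a palindromic element called CLEAR. In liver, hepatocytes and Kupffer cells (the resident macrophages) both hold many lysosomes. DNase II alpha, the product of Dnase2a, degrades DNA of engulfed cells and nuclei in the lysosome.

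Hepatocyte markers were bright on every array (Alb from 20219 to 31651), and all 8 hepatocyte markers with a probe set were above the dim limit. None of the 8 skeletal muscle, 9 neutrophil or 9 lymphocyte markers with a probe set was above it. Transgenic arrays 3 and 4 stood apart from the other 9 in their brightest signals (42426 and 43273 against 27780 to 35450), and values without them are given for several members. Because the samples are whole liver, fewer cells of a type and less RNA per cell cannot be told apart.

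Dnase2a had its highest signals on the normal diet, at 1859, 1582 and 2984 on the 3 arrays. Its signals were 637, 652, 578 and 912 in wild-type mice on the high-fat diet. They were 209, 251, 392 and 476 in the transgenic mice on the same diet. Every normal-diet array lay above every wild-type high-fat array, and each of these above every transgenic array. The mean signals were 2142 ± 742 (SD, n = 3), 695 ± 148 (SD, n = 4) and 332 ± 124 (SD, n = 4). This gives log2 differences of -1.59 ± 0.29 (SE) for diet, or 3.02-fold lower, and -2.71 ± 0.29 between the transgenic mice and the normal diet, or 6.56-fold lower. Both are descriptions without a test, since the normal-diet arrays entered the choice of this gene.

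Compared with the wild-type mice that also ate the high-fat diet, Dnase2a was 2.18-fold lower in the transgenic mice, a log2 difference of -1.12 ± 0.27 (SE) that did not pass limma's test over all genes (adjusted p = 0.102, and 0.0485 to 0.251 over all alternatives). The wild-type high-fat arrays of this comparison were also used in the choice, so these p-values are not independent of it. By size of decrease it ranked 10 of 7924 genes for diet, 28 for the transgenic mice on the high-fat diet and 3 when the transgenic mice were set against the normal diet. Only 9 genes (0.114% of those tested) had 3 groups without overlap in this descending order, and Dnase2a was the one member among them. The ranks and this order rest on arrays used in the choice of Dnase2a, so for it they are descriptions. A single probe set reports Dnase2a, of the type marked x, whose probes can match other transcripts, so its values have no second probe set to set beside them. The probe sets used for Gaa and Grn are also of this type, and their other probe sets are given below. Without transgenic arrays 3 and 4, which had the highest Dnase2a signals of their group, the Dnase2a difference from wild-type mice on the high-fat diet was -1.58.

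**Figure D1:**
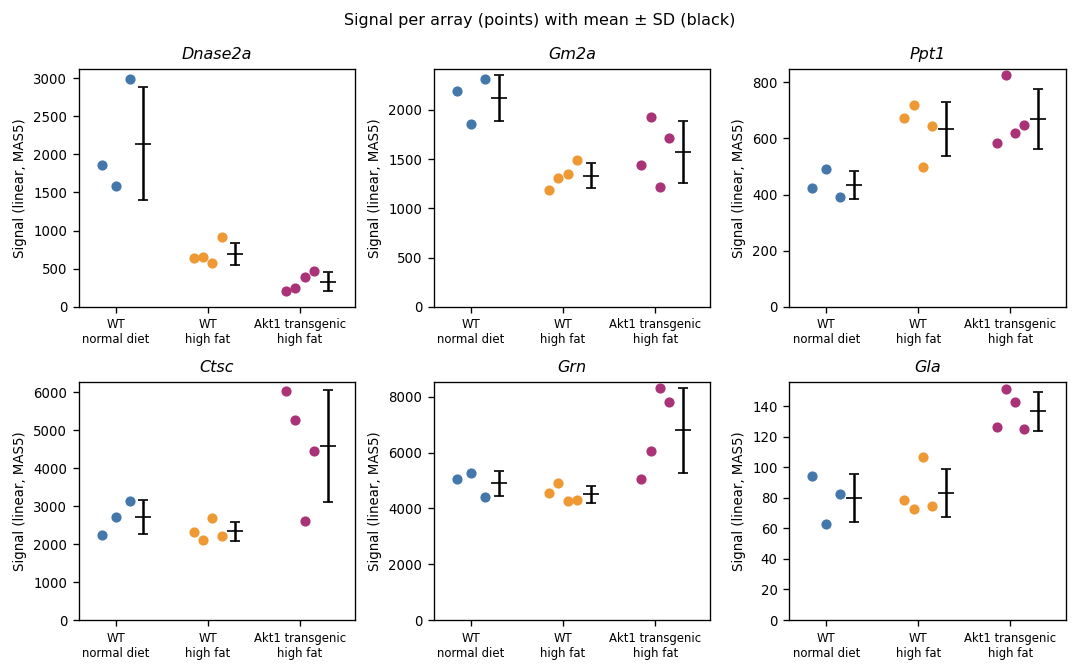
Linear MAS5 signal (y axis, from 0) of 6 lysosomal genes on each array (points), with the mean and SD of each group in black, for wild-type mice on the normal diet (n = 3), wild-type mice on the high-fat diet (n = 4) and Akt1 transgenic mice on the high-fat diet (n = 4). Dnase2a steps down from 2142 to 695 to 332 without overlap, while the other genes follow different patterns, with Ctsc spread widely among the transgenic arrays.

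The promoters of the members were searched for the letters of the CLEAR element. RefSeq promoter windows (GRCm38.p6, 250 bases before to 50 after an annotated start) were found for 34 of the 37 genes, and not for Ctsb, Ctsh and Asah1. The core GTCACGTG, on either strand (reverse complement CACGTGAC), was found in 11 of the 34 members (32.4%) and in 2.55% of all 27025 genes with a window. The shorter CACGTG, which the core contains, was found in 13 members (38.2%) and 8.09% of all genes. The core lengthened to a perfect palindrome, in which matches on both strands overlap, was found in 1 member, Cln3, and in 0.37% of all genes. Members were chosen as lysosomal genes, for which CLEAR is described, and the genes set beside them were not matched to them. These shares are therefore descriptions without a test. The following sites, from promoters of a membrane channel, a lysosomal membrane protein, a protective protease, an aspartic protease and a glycosidase, show the core in capitals with its neighbouring bases, each 5′ to 3′ on the gene's own strand:
Mcoln1, chr8:3500436-3500463, plus strand: ggtcgcgcttGTCACGTGttcagttcag
Mcoln1, chr8:3500464-3500491, plus strand: gcgccccgctCACGTGACcgcggcgcat
Lamp1, chr8:13159123-13159150, plus strand: tgccgactggCACGTGACcacatcacgt
Ctsa, chr2:164833749-164833776, plus strand: tgagcaaactGTCACGTGatgcagatgc
Ctsa, chr2:164833768-164833795, plus strand: tgcagatgctCACGTGACcagagctaca
Ctsd, chr7:142387908-142387935, minus strand: gcccgcgtctCACGTGACccgttgaggg
Gla, chrX:134601184-134601211, minus strand: tgagatctcgGTCACGTGagcaactctc
Cln3, chr7:126583342-126583369, minus strand: cacgggtactGTCACGTGacccccaacc

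The Dnase2a window held none of these letters, including the 6-base CACGTG, as was the case for most of the 34 members. This says only that exact matches are not in that window, since sites with a changed letter were not searched for. The 250 bases before its annotated start, shown because the other members are set beside Dnase2a, contain 20 CG dinucleotides at 62.4% G and C:
Dnase2a, chr8:84908505-84908754, plus strand: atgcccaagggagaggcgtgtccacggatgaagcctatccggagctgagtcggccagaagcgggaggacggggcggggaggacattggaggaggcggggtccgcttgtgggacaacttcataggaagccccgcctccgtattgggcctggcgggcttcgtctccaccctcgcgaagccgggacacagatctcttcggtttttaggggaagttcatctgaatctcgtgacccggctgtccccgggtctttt

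Members with the core and members without it are given side by side, as descriptions and leaving Dnase2a out. For diet, the 11 members with the core had a median log2 difference of 0.13, with 8 above 0, and the 20 without it had -0.010, with 9 above 0. For transgenic mice against wild-type mice on the high-fat diet the medians were -0.047 (4 of 11 above 0) and 0.14 (15 of 20 above 0). For transgenic mice against the normal diet they were 0.10 (8 of 11 above 0) and 0.13 (15 of 20 above 0).

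**Figure D2:**
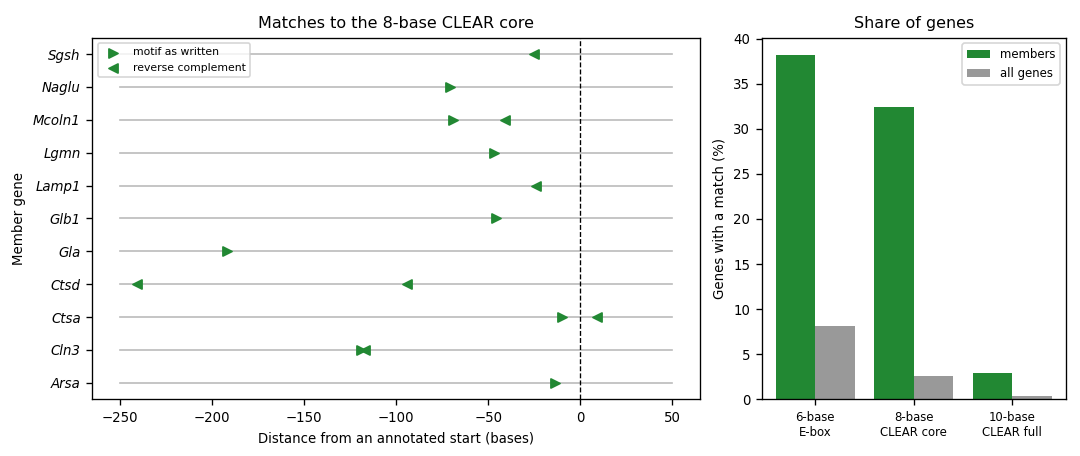
Left, position of each match to the 8-base core in the promoter windows of the 11 members that hold one, in bases from an annotated start (dashed line), with arrowheads for the strand. Right, share of genes (%) with a match to each of the 3 motif lengths among the 34 members with a window (green) and all 27025 genes (grey), 32.4% against 2.55% for the core. The shares are descriptions without a test.

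The first comparison asked whether the high-fat diet lowered other lysosomal genes with Dnase2a in wild-type mice, and most lay close to 0. Leaving Dnase2a out, the 34 members had a median log2 difference of 0.038, against 0.0067 over all 7924 genes, with 18 above 0 and 16 below. The differences of these 34 ran from -0.67 to 0.54, and 27 (79.4%) lay within 0.25 of 0, as did 72.4% of all genes. None passed limma's test at an adjusted p of 0.05, as for all genes (0%), and the smallest adjusted p among them was 0.364. At an unadjusted p under 0.05, limma gave 2 lower members, Gm2a and Gaa, and 1 higher, Ppt1, where 7.02% of all genes reached that level (3.09% lower and 3.92% higher). Every wild-type high-fat array lay below the normal diet for 2 members, Gm2a and Gaa, and above it for 2, Ctsb and Ppt1. The other probe sets of Gaa and Ctsb overlapped between these groups. Among all genes 7.91% were without overlap, 3.33% lower and 4.58% higher.

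Gm2a, which encodes the activator protein that presents ganglioside GM2 to its hydrolase, came nearest to Dnase2a. Its signals were 2192, 1854 and 2313 on the normal diet. They were 1189, 1304, 1349 and 1488 in wild-type mice on the high-fat diet, all below the normal-diet arrays, and 1437, 1926, 1215 and 1711 in the transgenic mice, where 1 array overlapped the normal diet. The log2 difference for diet was -0.67 ± 0.15 (SE), or 1.59-fold, and its other probe set gave -0.64. Between transgenic and wild-type mice within the high-fat diet it differed by 0.22 ± 0.14 (limma adjusted p = 0.521), where Dnase2a had -1.12.

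Gaa, the acid alpha-glucosidase that degrades glycogen in lysosomes, had signals of 869, 816 and 889 on the normal diet. It had 648, 627, 574 and 689.9 in wild-type mice on the high-fat diet and 811, 694, 948 and 675 in the transgenic mice. All 4 wild-type high-fat arrays lay below the normal diet, at -0.44 ± 0.13 (limma adjusted p = 0.591), while the transgenic arrays overlapped both groups. The other Gaa probe set gave -0.22 for diet, with overlapping arrays. Within the high-fat diet it gave 0.10, where the one used gave 0.29. Sgsh, a heparan sulfate sulfatase, had 179.6, 92.9 and 178 on the normal diet, 93.6, 80.6, 149 and 138 in wild-type mice on the high-fat diet and 94.8, 103, 103 and 149.8 in the transgenic mice. Its groups overlapped, and its diet difference of -0.37 ± 0.30 was hardly larger than its error. It was -0.68 without normal-diet array 2 and -0.20 without normal-diet array 1.

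Ppt1, a palmitoyl-protein thioesterase that removes fatty acids from proteins, was the member with the largest difference above 0. It had 423, 490.1 and 389.6 on the normal diet, 672, 719, 498 and 646 in wild-type mice on the high-fat diet and 585, 826, 618 and 646 in the transgenic mice. Each of the 8 high-fat arrays lay above the normal diet. The log2 difference for diet was 0.54 ± 0.16 (limma adjusted p = 0.591), and its other probe set gave 0.46.

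Hexa, the alpha subunit of beta-hexosaminidase, which works with the Gm2a product, had 848, 648 and 955 on the normal diet. It had 856, 950.3, 1122 and 1319 in wild-type mice on the high-fat diet and 1335, 1119, 1665 and 1261 in the transgenic mice. The diet difference was 0.38 ± 0.18, and wild-type high-fat arrays 1 and 2 overlapped the normal diet. Lgmn, an asparaginyl endopeptidase, had 647, 432 and 518, then 692, 872, 519.8 and 550.2, then 1058, 966, 452 and 708 in the same order of groups. Its diet difference was 0.30 ± 0.28, and transgenic arrays 1 and 2 were its highest. Cln3, a lysosomal membrane protein, had 191, 201 and 161, then 243, 231, 212 and 195, then 292, 178, 157 and 186, with a diet difference of 0.26 ± 0.20 and overlapping groups. None of these 3 passed in limma's test for diet, with adjusted p of 0.734 for Hexa, 0.894 for Lgmn and 0.863 for Cln3. Leaving out single arrays, they ran from 0.22 to 0.50, 0.15 to 0.45 and 0.16 to 0.32.

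By role, the diet medians stayed near 0. The 9 proteases, mostly cathepsins, had a median log2 difference of 0.087, from -0.20 (Ctsc) to 0.30 (Lgmn), with 6 above 0. The 11 glycosidases had -0.020, from -0.44 (Gaa) to 0.38 (Hexa), with 4 above 0. The 5 genes of lipid degradation ran from -0.67 (Gm2a) to 0.54 (Ppt1), so apart from Dnase2a the largest differences of either sign lay in one role. The 5 membrane proteins lay between -0.058 (Lamp2) and 0.26 (Cln3), and the sulfatases Sgsh and Arsa at -0.37 and 0.20. The regulators Grn, which encodes progranulin, and Tfeb lay at -0.12 and -0.14.

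**Figure D3:**
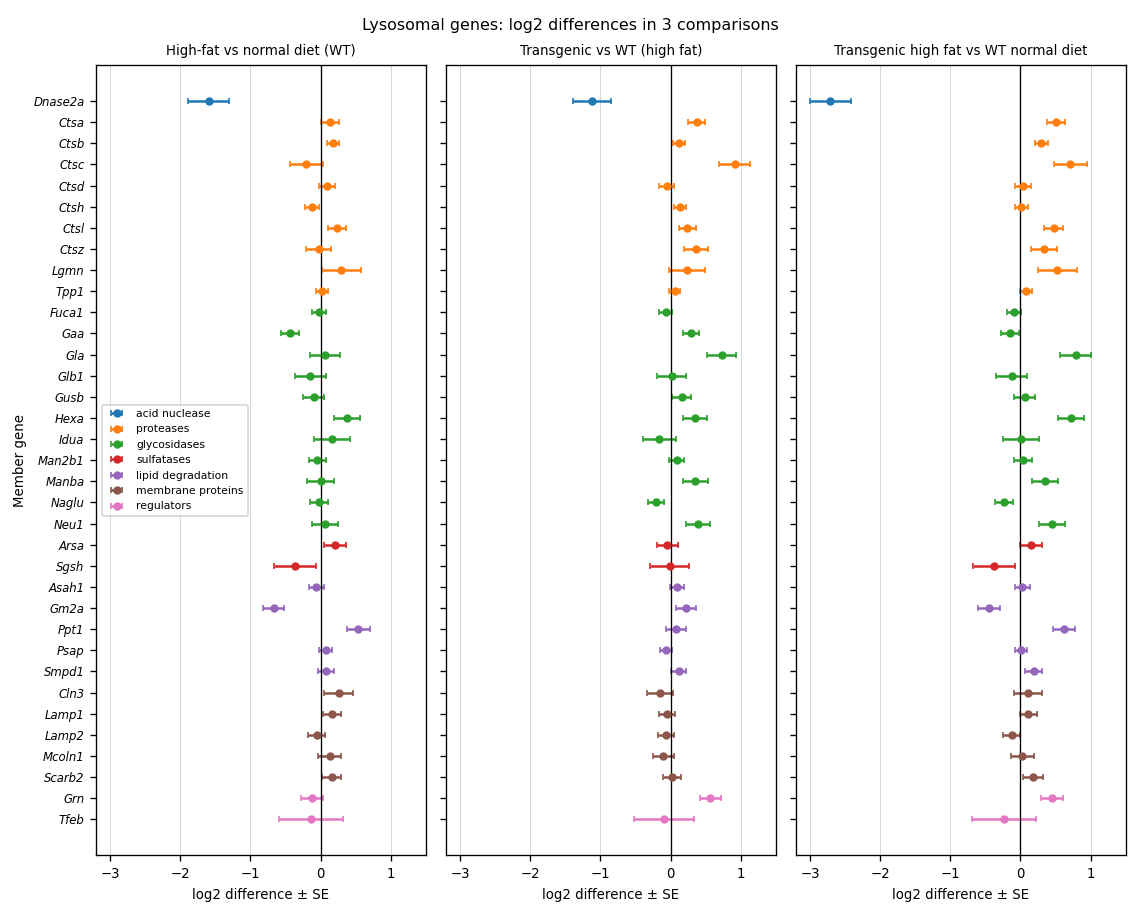
Log2 difference with limma's standard error (x axis) for the 35 lysosomal genes with a probe set, grouped by role (colours), in 3 comparisons. Dnase2a lies at -1.59, -1.12 and -2.71, while the other 34 lie between -0.67 and 0.92 in all 3 panels.

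The second comparison set transgenic against wild-type mice on the high-fat diet. The 34 members other than Dnase2a had a median log2 difference of 0.088 against 0.0010 over all genes tested, and 22 lay above 0 (64.7%, against 50.2% of all genes). No member passed limma's adjusted threshold, which 0.366% of all genes did. At an unadjusted p under 0.05 limma gave 6 higher members besides Dnase2a, namely Ctsc, Grn, Gla, Ctsa, Gaa and Neu1 (6.95% of all genes were higher at that level), and 0 lower (6.74%). Ctsa, Gla and Grn had every transgenic array above every wild-type array on that diet, as had 4.32% of all genes, and besides Dnase2a no member was lower without overlap (4.09% of all genes, 8.4% in either direction). Another probe set of Grn overlapped between these groups. With arrays centred on their medians, the median moved by -0.12 over all genes and was -0.035 over the 35 members, so the sign of the median depends on that scaling while the members again lay above all genes.

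Ctsc, which encodes the dipeptidyl peptidase cathepsin C that activates granule serine proteases, had the largest difference. Its signals were 2245, 2719 and 3145 on the normal diet and 2322, 2101, 2692 and 2225 in wild-type mice on the high-fat diet. In the transgenic mice they were 6035, 5279, 2606 and 4458, so 3 arrays stood far above and array 3 lay within the wild-type range. The log2 difference was 0.92 ± 0.22 (SE), or 1.89-fold, with a limma adjusted p of 0.102. Without transgenic array 3 it was 1.17 and passed (limma adjusted p = 0.0382), without arrays 3 and 4 it was 1.28, and over all alternatives the adjusted p ran from 0.0220 to 0.238.

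Markers of Kupffer cells and macrophages also had their lowest transgenic value on array 3. The summed signal of the 19 markers with a probe set was 12591, 20343, 7686 and 13962 on transgenic arrays 1 to 4, so it was highest on array 2 where Ctsc was highest on array 1. The sum ran from 4735 to 7520 on the normal diet and from 6055 to 15079 in wild-type mice on the high-fat diet, where array 2 had the highest sum and the lowest Ctsc. For diet 16 of the 17 markers above the dim limit were above 0 (median log2 difference 0.58) while Ctsc was at -0.20. In the transgenic mice 15 of the 17 markers were higher than in wild-type mice on the same diet (median log2 difference 0.54), none passing limma's adjusted test, and Marco and Itgam were below that limit. The part of these cells in the Ctsc values was not tested.

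Grn had 5055, 5259.7 and 4405 on the normal diet and 4544, 4915, 4278 and 4289.5 in wild-type mice on the high-fat diet. It had 5045, 6066, 8317 and 7809 in the transgenic mice, with arrays 3 and 4 highest. The log2 difference from wild-type mice on that diet was 0.57 ± 0.14 (limma adjusted p = 0.113), and its other 2 probe sets gave 0.64 and 0.65. In the probe set at 0.65 the groups overlapped, with transgenic array 1 (4052) below wild-type high-fat array 2 (4127). Without transgenic array 1 the probe set used gave 0.70 and passed (limma adjusted p = 0.0378). Over all alternatives its adjusted p ran from 0.0378 to 0.417. Without arrays 3 and 4 the difference was 0.30. The summed signal of the 8 hepatocyte markers was also highest on arrays 3 and 4, at 230195 and 235400 against 146385 to 188064 on the other 9, and the part of that feature in the Grn values was not tested.

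Gla, the alpha-galactosidase that clears globotriaosylceramide, was measured at low signals. It had 93.9, 62.8 and 82.5 on the normal diet, 78.8, 72.4, 107 and 74.9 in wild-type mice on the high-fat diet and 127, 151, 143 and 125 in the transgenic mice, whose arrays lay above all others. The log2 difference within the high-fat diet was 0.73 ± 0.20 (limma adjusted p = 0.150), and its other probe set lay below the dim limit. Neu1, the lysosomal sialidase, had 565, 420.3 and 499, then 462, 416, 569 and 628, then 599.9, 541, 791 and 793 in the order of groups, a difference of 0.39 ± 0.17 (limma adjusted p = 0.344), with arrays 3 and 4 highest as for Grn and 0.15 without them. Ctsa, the protective protein that stabilises the Neu1 product, had 1919.9, 1341 and 1667, then 1769, 1718, 1848 and 1792, then 2218, 1960.3, 2545 and 2568, at 0.37 ± 0.12 (limma adjusted p = 0.211), and 0.23 without arrays 3 and 4.

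After Dnase2a, the lowest members within the high-fat diet were Naglu, Idua and Cln3, and none was past -0.21. Naglu, an enzyme of heparan sulfate breakdown, had 478, 433 and 505 on the normal diet, 474, 401, 462 and 519.6 in wild-type mice on the high-fat diet and 359, 384, 420.3 and 444 in the transgenic mice. Its difference was -0.21 ± 0.12 (limma adjusted p = 0.462). Idua, the alpha-iduronidase, had 110.4, 127 and 158, then 130.0, 134, 154 and 171, then 90.9, 119, 135 and 202. Its difference was -0.16 ± 0.23, and that of Cln3 was -0.15 ± 0.19, so neither exceeded its error. Without transgenic arrays 3 and 4, Idua was at -0.49, Naglu at -0.32 and Cln3 at 0.055.

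Among roles, 8 of 9 proteases had a log2 difference above 0 within the high-fat diet (median 0.23), as had 8 of 11 glycosidases (0.16). Membrane proteins had a median of -0.069, with 1 of 5 above 0. Lamp1 and Lamp2, the main glycoproteins of the lysosomal membrane, lay at -0.047 ± 0.11 and -0.069 ± 0.11. The other Lamp2 probe sets gave -0.14, 0.11 and 0.31, so its sign depends on the probe set. The cathepsins Ctsb, Ctsl and Ctsz lay at 0.12, 0.24 and 0.37, and Ctsd at -0.052. The 3 probe sets of Ctsz gave 0.31, 0.37 and 0.52, and transgenic arrays 3 and 4 were highest in each. Without these arrays Ctsz was at 0.073 and Ctsl at 0.085.

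**Figure D4:**
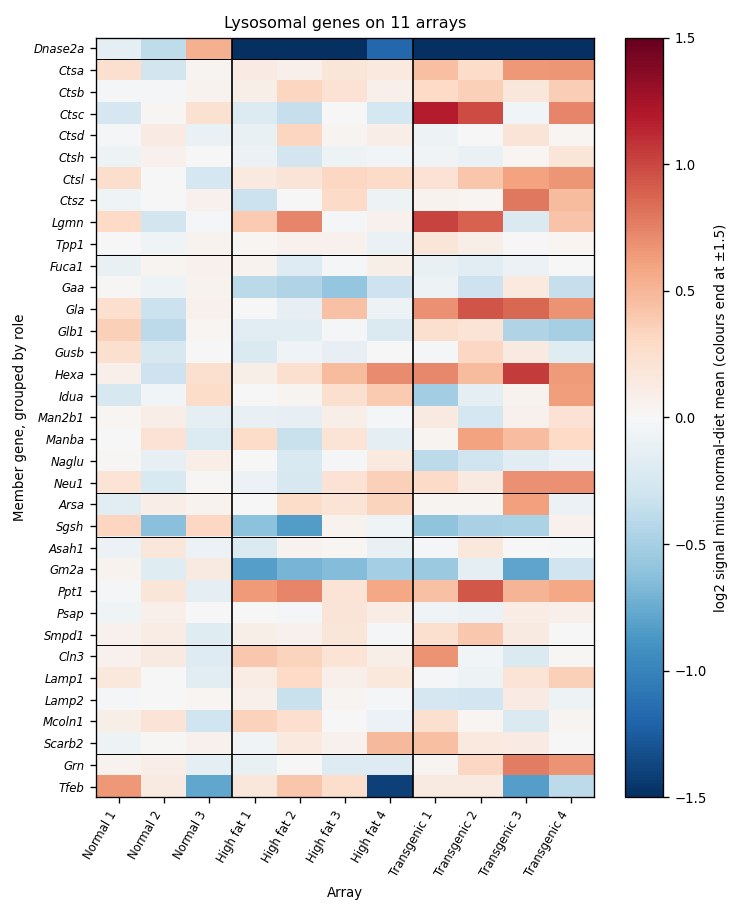
Log2 signal of each lysosomal gene (rows, grouped by role) on each of the 11 arrays (columns), minus the gene's mean on the normal diet. Colours end at ±1.5, and Dnase2a reaches -3.30 on transgenic array 1. Only the Dnase2a row is dark blue on all 8 high-fat arrays, and proteases such as Ctsc and Ctsl are red on most transgenic arrays.

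Transgenic mice on the high-fat diet were then set against wild-type mice on the normal diet, a comparison that shares arrays with both others. The 34 members other than Dnase2a had a median log2 difference of 0.090 against 0.0041 over all genes, with 26 above 0 (76.5%, against 50.6%). In the same comparison 16 of 17 Kupffer cell and macrophage markers were above 0 (median 1.02, 10 without overlap), of which Cd5l and Folr2 passed in limma's test, and all 8 hepatocyte markers were above 0 (median 0.27). Their part in the members' values was not tested. With arrays centred on their medians, all genes moved to -0.13 and the 35 members to -0.062. None of these 34 passed limma's adjusted threshold, where 2.08% of all genes did (0.681% lower and 1.4% higher). Dnase2a is given here without a test. At an unadjusted p under 0.05, 9 members were higher (9.96% of all genes) and besides Dnase2a 1 was lower, Gm2a (8.35%). For 5 members, Ctsa, Ctsb, Gla, Hexa and Ppt1, every transgenic array lay above every normal-diet array, as for 8.46% of all genes, and besides Dnase2a none was lower without overlap (7.1%, and 15.6% in either direction).

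The largest differences from the normal diet were in Gla (0.79 ± 0.22), Hexa (0.72 ± 0.18), Ctsc (0.71 ± 0.24) and Ppt1 (0.62 ± 0.16), with limma adjusted p of 0.0898, 0.0660, 0.141 and 0.0684. Without transgenic array 3, Ctsc was at 0.96 and passed (limma adjusted p = 0.0157), over a range of 0.0157 to 0.296 for all alternatives. Without arrays 3 and 4, Hexa was at 0.60. The cathepsin B gene Ctsb had 8259, 8295 and 8717 on the normal diet, 8916, 10571, 9769.9 and 8907 in wild-type mice on the high-fat diet and 10387, 10762, 9460.3 and 10906 in the transgenic mice, at 0.30 ± 0.091 (limma adjusted p = 0.114). The other Ctsb probe sets gave 0.088, 0.36 and 0.23 against the normal diet, each with overlapping arrays. In this comparison all 9 proteases lay above 0, with a median of 0.34. Of these, Ctsh (0.015 ± 0.097), Ctsd (0.035 ± 0.11) and Tpp1 (0.076 ± 0.087) did not exceed their errors. Centring arrays on their medians moved the median of all genes to -0.13, past the size of these 3, so the count depends on that scaling. The 3 lowest members after Dnase2a were Gm2a (-0.45 ± 0.15, limma adjusted p = 0.155), Sgsh (-0.37 ± 0.30) and Tfeb (-0.24 ± 0.46).

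Tfeb, the transcription factor of the CLEAR network, was measured at low signals that varied within every group. It had 172, 120.2 and 64.2 on the normal diet, 124, 146, 132 and 41.7 in wild-type mice on the high-fat diet and 120.3, 121, 62.2 and 83.7 in the transgenic mice. All 3 groups overlapped.

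Over all members, the median distance of an array from the normal-diet means was small on each of the 11 arrays. It lay between 0.0093 and 0.028 (log2) on the normal-diet arrays, between -0.016 and 0.068 in wild-type mice on the high-fat diet and between 0.056 and 0.12 in the transgenic mice. The lowest of the 35 members on each high-fat array was far below. It was Dnase2a on 7 of the 8, at -1.66 to -1.84 on wild-type arrays 1 to 3 and -2.11 to -3.30 on the transgenic arrays, and on wild-type array 4 it was Tfeb at -1.40, with Dnase2a at -1.18.

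Genes that are not members were counted in 6 lists, of lysosomal function and sorting, autophagy, mTORC1 and MiT factors, and other nucleases, of which 105 of 140 genes were tested. None passed limma's adjusted threshold for diet (0% of all genes), none for the transgenic mice on the high-fat diet (0.366%), and 1 when transgenic mice were set against the normal diet (2.08%). Without overlap, 5 were higher and 5 lower for diet (4.58% and 3.33% of all genes), 8 and 5 within the high-fat diet (4.32% and 4.09%), and 13 and 3 against the normal diet (8.46% and 7.1%). That gene was Uvrag, a regulator of autophagosome and endosome maturation, which rose. It had 655, 414 and 476 on the normal diet, 788, 807, 704 and 770.2 in wild-type mice on the high-fat diet and 771, 750.4, 797 and 797 in the transgenic mice, a log2 difference of 0.62 ± 0.14 from the normal diet (limma adjusted p = 0.0456). Both high-fat groups lay above the normal diet, and for diet alone the difference was 0.60 ± 0.14 (limma adjusted p = 0.365).

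The 29 tested genes of other lysosomal hydrolases and transporters had a diet median of -0.018, with 11 above 0. Within the high-fat diet 20 of them were above 0 (median 0.13), led by Hyal2, a hyaluronidase (0.59 ± 0.15, limma adjusted p = 0.119). Pla2g15, a lysosomal phospholipase, had the smallest p for diet (0.53 ± 0.20, limma adjusted p = 0.670).

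The 15 tested subunits of the V-ATPase, the pump that acidifies lysosomes, had medians of 0.066 for diet and 0.0044 within the high-fat diet. Their smallest p belonged to Atp6ap2 for diet (-0.39 ± 0.15) and Atp6v0e within the high-fat diet (0.29 ± 0.10), and to Atp6v0b for transgenic mice against the normal diet (-0.26 ± 0.10). The 14 genes of mannose 6-phosphate sorting had 0.059 and 0.094, with Ap1m1 (0.23 ± 0.12) and Ap3d1 (-0.38 ± 0.13), both adaptor subunits. The 23 autophagy genes had 0.061 and -0.026, with the kinase gene Ulk1 at 0.56 ± 0.20 within the high-fat diet.

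The 13 genes of MiT factors and mTORC1, which hold TFEB in check or act beside it, had 0.020 and -0.12, with Flcn at -0.54 ± 0.21 for diet and Lamtor2 at -0.28 ± 0.080 within the high-fat diet. Flcn had 415, 428 and 770 on the normal diet, so array 3 lay far above arrays 1 and 2. It had 317, 359, 379 and 367 in wild-type mice on the high-fat diet. The 11 tested genes of other nucleases and DNA sensing, the nearest in function to Dnase2a, had 0.17 and 0.15. Their smallest p belonged to Rnaseh2c for diet (-0.32 ± 0.16), to Endog, a mitochondrial nuclease, within the high-fat diet (-0.37 ± 0.12) and to Zbp1, a sensor of unusual nucleic acids, in transgenic mice set against the normal diet (2.37 ± 0.60, limma adjusted p = 0.0638). Zbp1 signals on the normal diet were low, at 16.5, 124 and 49.8, with arrays 1 and 3 under the dim limit. None of the genes named from these lists passed in limma's test other than Uvrag.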

How the data were processed

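The authors deposited one linear intensity value (signal) per probe set and array, made with MAS5 per the submitters' processing notes, for 22690 probe sets on 11 arrays. The values came with one trimmed mean on each array (500.251 to 500.285, outer 2% left out) and no detection calls. MAS5 works one array at a time, so shapes of distributions can differ between arrays.

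Signals under 1 were set to 1 and log2 taken. Control probe sets and those without exactly 1 symbol were dropped, as was the lowest 40% by mean log2 signal (under about 53.0, the dim limit). Each of the 7924 genes was then represented by its brightest probe set. Groups came from sample titles. Limma 3.58.1 in R 4.3.3 (lmFit, eBayes with trend) was fitted to all 11 arrays with a mean per group, two-sided, with Benjamini-Hochberg adjustment over all genes at 0.05. Errors of log2 differences are moderated standard errors. The fit was tested on simulated data in which genes and arrays varied independently. That test says nothing of differences shared by many genes on an array. The number of arrays limits precision.

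Members and lists were chosen with earlier results of these data known. Named members are Dnase2a, those past the threshold and the 4 largest rises and falls of each comparison, and from each other list the genes past the threshold or of smallest p. Other members named were added after their values were seen. Alternatives changed normalization, pseudocount, filter, probe sets, variance model, array weights, arrays in the fit and the replicate block. The replicate numbers were not taken to pair the mice, since nothing in the labels ties them to a litter or day and at least 1 same-numbered pair in each comparison correlated below the limit set for pairing. Within the high-fat diet only the pair numbered 1, at 0.0842, was below it, and the others lay between 0.122 and 0.292.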

Additional observations from a re-analysis of the deposited data

Results flagged for a closer look

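In the groups of 4, 70 sets of signals of lysosomal genes were searched for an array far from the rest of its group, and 3 were found where chance gives about 1 in 20. In the transgenic mice, Arsa, an arylsulfatase, was 1063 on array 3 against 652.5 to 715.5 on the other arrays. Sgsh was 149.8 on transgenic array 4 against 94.8 to 103.4. Asah1, an acid ceramidase, was 1181 on transgenic array 2 against 1036.5 to 1053.5.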

How the results depend on the processing

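Of 546 values of single members under 23 alternatives, 532 kept direction and side of the threshold, 8 newly passed it, 5 changed sign and 1 moved by more than the spread (Dnase2a against the normal diet without transgenic arrays 3 and 4, -3.17); Dnase2a in its comparisons with the normal diet was judged by size, without a test. Dnase2a ran from -1.78 to -1.33 for diet, -1.58 to -0.92 within the high-fat diet and -3.17 to -2.45 against the normal diet. Small differences changed sign: against the normal diet Tfeb was 0.00033 with the replicate block, 0.14 without transgenic arrays 3 and 4 and -0.62 to 0.087 leaving out single arrays; within the high-fat diet Cln3 was 0.055 without transgenic arrays 3 and 4, and Idua -0.37 to 0.015 leaving out single arrays. The cause was not tested.

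Counts of members called moved from 0 for diet to 1 with the replicate block (Dnase2a, chosen on that contrast). From 0 within the high-fat diet they moved to 1 with array weights (Ctsc), with the replicate block (Dnase2a), without transgenic arrays 3 and 4 (Ctsc), and to 0 to 1 leaving out single arrays. Against the normal diet the count of 1, which is Dnase2a, chosen on those arrays, became 2 with every probe set, with the replicate block (Ppt1 added, limma adjusted p = 0.0493, range 0.0493 to 0.209), without transgenic arrays 3 and 4, and 1 to 2 leaving out single arrays.

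Deviations of same-numbered arrays correlated at -0.0721 to 0.0287 for diet, 0.0842 to 0.292 within the high-fat diet and -0.0592 to 0.111 against the normal diet. Within the high-fat diet all 4 pairs were positive and 8 of 8 arrays correlated best with their own number (0 of 6 for diet, 2 of 6 against the normal diet), a hint from the data and not the design. With the replicate block, Dnase2a within the high-fat diet was -1.12 (limma adjusted p = 0.0485, range 0.0485 to 0.251). These p-values are not independent of the choice of Dnase2a, which used the wild-type high-fat arrays.

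Member medians within the high-fat diet and against the normal diet were -0.035 and -0.062 with arrays centred on the median, and 0.13 and 0.14 without transgenic arrays 3 and 4; the latter was 0.11 with every probe set. Leaving out single arrays they ran from -0.018 to 0.054 for diet, 0.046 to 0.13 within the high-fat diet and 0.059 to 0.12 against the normal diet.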

Other observations

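Csad, cysteine sulfinic acid decarboxylase of taurine synthesis, was the gene whose log2 signal followed Dnase2a most closely over the 11 arrays (Pearson correlation 0.980, given as a description). Its signals were 2709, 2566 and 3915 on the normal diet, 626, 962, 622 and 1335 in wild-type mice on the high-fat diet and 158, 125, 406 and 497 in the transgenic mice. As for Dnase2a, the 3 groups did not overlap, normal-diet array 3 was highest, wild-type array 4 led its group and transgenic arrays 3 and 4 lay above arrays 1 and 2. Its log2 differences were -1.84 for diet, -1.74 within the high-fat diet and -3.58 against the normal diet. The next 4 by the same measure were Xpo7, Maml1, Ppp1r2 and Dnajc7, with smaller log2 differences of -0.46, -0.69, -0.41 and -0.38 when transgenic mice were set against the normal diet. Of the 34 other members, 25 correlated with Dnase2a below 0 and 9 above, with a median of -0.25 against -0.027 over all genes. Naglu was highest among members at 0.75, followed by Gm2a (0.56), Sgsh (0.53) and Fuca1 (0.50), and Ctsb was lowest at -0.79. Besides Dnase2a and Csad, the genes whose 3 groups descended without overlap were Ahctf1, Erbin, Gstm1, Maml1, Me1, Pon2 and Uqcr11.

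None of the 8 tested genes nearest Dnase2a in RefSeq gene order (GRCm38.p6) had groups without overlap in any comparison. Among all genes 7.91% were without overlap for diet, 8.4% within the high-fat diet and 15.6% against the normal diet. None among 8 genes is near these shares. The 4 nearest tested genes on one side were Klf1, Gcdh, Syce2 and Farsa, with diet differences of 0.37 ± 0.32, 0.16 ± 0.18, -0.51 ± 0.32 and -0.11 ± 0.30 (log2, SE). On the other side Mast1, Rtbdn, Prdx2 and Junb had 0.46 ± 0.34, 0.085 ± 0.70, 0.15 ± 0.11 and 0.31 ± 0.43. Mast1 (group means 45.2 to 76.2) and Rtbdn (50.1 to 80.1) had signals near the dim limit. Within the high-fat diet the same 8 genes ran from -0.51 (Rtbdn) to 0.88 (Junb). None passed limma's adjusted threshold in any of the 3 comparisons, where 0%, 0.366% and 2.08% of all genes did.

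Other probe sets of the members above the dim limit, 21 in all, had the sign of the one used in 13 cases for diet, 17 within the high-fat diet and 15 against the normal diet. In 2 cases against the normal diet, Lamp2 (0.42 against -0.13) and Scarb2 (-0.30 against 0.18), a probe set of opposite sign had an unadjusted limma p under 0.05.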
